A study of Saccharomyces pastorianus Weihenstephan 34/70 with 7 samples.

Results

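Gene expression of the lager yeast Weihenstephan 34/70 (Saccharomyces pastorianus) was compared between stationary phase samples from 21 °Plato wort adjusted with maltose syrup (maltose control) and from 21 °Plato wort adjusted with glucose syrup (glucose control), both without the peptidase mixture Flavourzyme. °Plato gives the dissolved extract of a wort by weight. The comparison used 4 of the 7 arrays, 2 from maltose controls and 2 from glucose controls, and all 5635 S. cerevisiae genes that at least 1 of the 10928 probe sets of the Affymetrix Yeast Genome 2.0 array names singly, each through the probe set with the highest mean where there were several. The other 3 arrays were 1 of maltose wort and 2 of glucose wort, all with Flavourzyme. They gave no value to this comparison, but they entered the fit that estimated the spread. The strain is a hybrid of S. cerevisiae with another Saccharomyces species, whereas the probes were designed on S. cerevisiae, so a signal stands for whichever transcripts of the hybrid bound them.

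According to the methods, the sampling time differed with the wort, and the type of wort and the sampling time therefore cannot be told apart here. RNA samples were taken in duplicate, and the sources used here do not say whether both samples of a wort came from separate fermentations. The p-values below measure only the spread between these samples, which may be technical. Signals are relative to the RNA hybridized, so that a change in fewer cells and a change in RNA per cell cannot be told apart.

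Values are the deposited log2 signals, in which a difference of 1 is a doubling, and in each list of values replicate 1 of a wort precedes replicate 2. Each fold change is the mean of the maltose controls minus the mean of the glucose controls on the log2 scale, with its standard error from limma. A gene was called when its Benjamini-Hochberg adjusted p over all 5635 genes was under 0.05 and its log2 fold change was beyond 1.301 in either direction, the number in the study's methods. "Rose" and "fell" are used only of genes called higher or lower in the maltose controls.

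The maltose controls were nearly alike, whereas the glucose controls stood apart from each other. The median difference of a gene between duplicates was 0.08 for the maltose controls and 0.52 for the glucose controls, and Pearson's r over genes was 0.997 and 0.928. Glucose control 1 correlated with the maltose controls at 0.910 and 0.912, and glucose control 2 at 0.862 and 0.863. Glucose control 2 was close to the glucose arrays with Flavourzyme (0.968 and 0.980), and glucose control 1 correlated with those at 0.952 and 0.956. With the maltose array with Flavourzyme the correlation was 0.948 for glucose control 1 and 0.883 for glucose control 2. Where leaving out 1 glucose control ended the call of a gene named below, its difference from the other is given. The 17 probe sets of S. cerevisiae ribosomal RNA differed between the worts as well, with mean log2 signals of 8.70 and 8.74 in the maltose controls and 11.20 and 11.65 in the glucose controls. The part of this in the results below was not tested. The median signal of the S. cerevisiae genes lay between 9.10 and 9.28 on the 4 arrays and that of 4916 probe sets of the fission yeast S. pombe between 3.16 and 3.42. Among the S. pombe probe sets 95% had means of up to 4.95, taken here as the level (the S. pombe level) at or under which the size of a fold change is uncertain.

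As background, yeast represses genes for other carbon sources and for respiration while glucose is plentiful. As glucose runs down, the kinase Snf1 relieves this repression through Mig1, and high-affinity hexose transporters, gluconeogenesis and mitochondrial respiration are induced. Maltose enters through proton-coupled permeases and is cleaved to glucose inside the cell. Genes for ribosomal proteins and for ribosome assembly follow the nutrient supply, and wort fermentations run almost without oxygen, a state in which yeast imports sterols and changes its cell wall mannoproteins.

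In maltose wort, 478 genes rose (8.48%) and 280 fell (4.97%), together 758 of the 5635 genes (13.5%). The adjusted p alone was passed by 1609 genes (28.6%), 1056 of them higher and 553 lower, and 2453 genes had an unadjusted p under 0.05. In all 758, both maltose controls lay on the same side of both glucose controls, as they did for 2457 genes (43.6%) above and 1525 genes (27.1%) below. Of the 758, 424 were past the fold threshold against each glucose control taken singly, 232 higher and 192 lower. The maltose controls were past it on the higher side for 377 genes against glucose control 1 and for 1074 against glucose control 2, and on the lower side for 321 and 435 genes.

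The share of higher genes among those called depended on the scaling, at 63.1% here, 51.4% (358 higher and 338 lower) with each array centred on its median and 46.7% (336 higher and 384 lower) with quantile normalization repeated over the S. cerevisiae probe sets. The median fold change over all genes was 0.20 as deposited, 0.09 after centring and 0.02 after that normalization, so medians of gene lists are also given relative to all genes. The number of genes called was 1505 without glucose control 1, of which 701 were among the 758, and 693 without glucose control 2, of which 480 were. Without either maltose control, PUT1 was the only gene called, and without either glucose array with Flavourzyme 390 were called, as in a fit of the 4 control arrays alone. Without 1 glucose control, the spread of the glucose controls is not measured and that of the other groups stands in for it. The SD that limma estimated as typical was 0.13 in those fits, against 0.25 in the main fit. A call made only in such a fit is therefore no support for a difference. The main fit itself pools the narrow spread of the maltose controls with the wider one of the glucose controls. These limits apply to every call below.

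**Figure D1:**
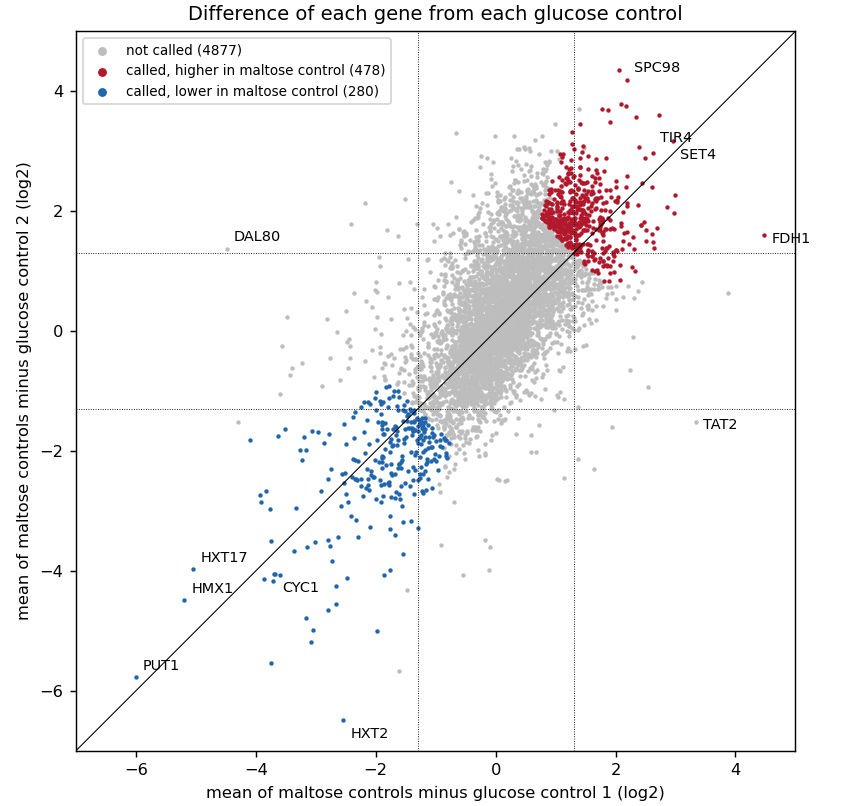
Difference of each of the 5635 genes between the mean of the maltose controls and glucose control 1 (horizontal axis) or glucose control 2 (vertical axis), on the log2 scale. Red and blue points are the 478 genes called higher and the 280 called lower in the maltose controls, grey points are not called, dotted lines mark the fold threshold of 1.301 and the solid line marks equal differences. PUT1 and HMX1 lie near the line, while HXT2 and DAL80 lie far from it.

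The largest decreases were those of PUT1, HMX1 and PSR1. PUT1, the proline oxidase of proline breakdown, had log2 signals of 7.67 and 7.95 in the maltose controls, against 13.81 and 13.58 in the glucose controls (log2 fold change -5.89, standard error 0.21, adjusted p = 0.00122). HMX1, haem oxygenase, had 8.44 and 8.05 in the maltose controls, against 13.44 and 12.73 in the glucose controls (log2 fold change -4.84, standard error 0.29, adjusted p = 0.00365). In both genes the gap between the worts was many times that between duplicates. PSR1, a plasma membrane phosphatase of the salt stress response, had 4.93 and 4.79 in the maltose controls, against 8.6 and 10.39 in the glucose controls (log2 fold change -4.64, standard error 0.56, adjusted p = 0.00947), with its maltose mean under the S. pombe level. The aquaporin gene AQY1 had 8.32 and 8.19 in the maltose controls, against 12.12 and 12.39 in the glucose controls (log2 fold change -4.0, standard error 0.33, adjusted p = 0.00588). The 10 largest decreases also included the hexose transporters HXT2 and HXT17, the amino acid permease AGP2 and the co-chaperone APJ1, described below, and the reading frames YKR075C (-4.13) and YOR338W (-4.02).

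The largest increases were smaller and more of them were uneven against the glucose controls. VEL1, a gene of unknown function known to respond to zinc, had 9.98 and 9.71 in the maltose controls, against 7.78 and 5.49 in the glucose controls (log2 fold change 3.21, standard error 0.76, adjusted p = 0.0302). FDH1, formate dehydrogenase, had 10.48 and 10.45 in the maltose controls, against 5.98 and 8.87 in the glucose controls (log2 fold change 3.04, standard error 0.87, adjusted p = 0.0489), so that the glucose controls were further apart than glucose control 2 was from the maltose controls, and it was not called with the arrays centred or renormalized. SET4, which encodes a chromatin protein with a SET domain, had 6.55 and 6.38 in the maltose controls, against 3.51 and 3.29 in the glucose controls (log2 fold change 3.06, standard error 0.20, adjusted p = 0.00451), and its glucose signals were under the S. pombe level. TIR4, an anaerobic cell wall mannoprotein, had 12.67 and 12.59 in the maltose controls, against 10.01 and 9.67 in the glucose controls (log2 fold change 2.79, standard error 0.20, adjusted p = 0.00501). In SET4 and TIR4 the duplicates of each wort lay within 0.40 of each other. KAP114, a nuclear import receptor, rose by 2.96, and the reading frames YIL014C-A and YGL242C by 2.94 and 2.77, each with a larger gap to glucose control 2. The remaining genes of the 10, CTF18, SPC98 and MTW1, act in chromosome segregation and are described with it.

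**Figure D2:**
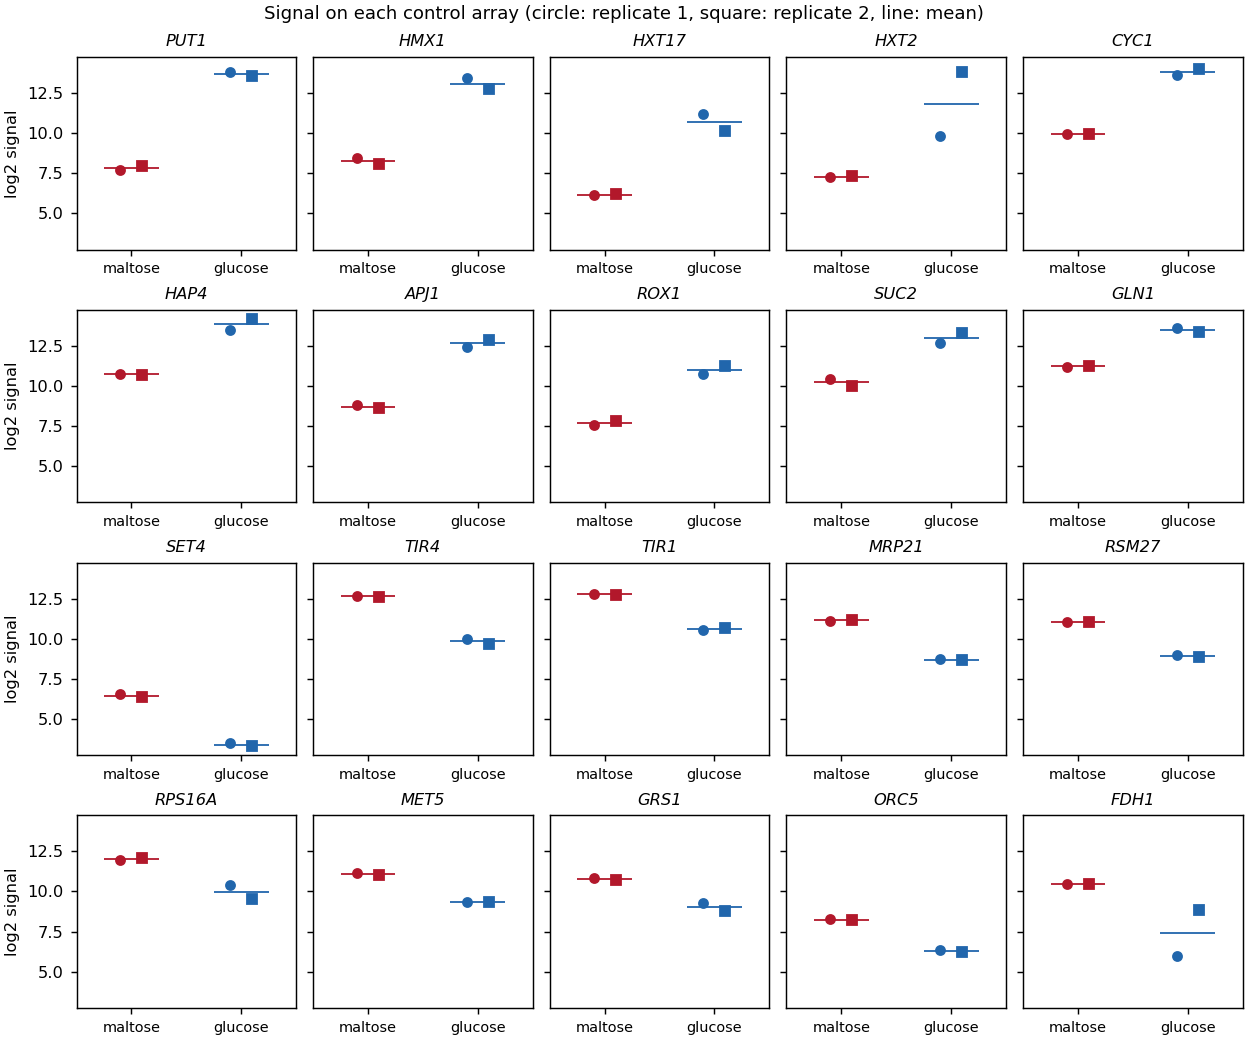
Log2 signal of 20 genes on each control array, with the maltose controls in red on the left and the glucose controls in blue on the right of each panel. Circles are replicate 1, squares replicate 2 and lines the mean of a wort (n = 2). The maltose points nearly coincide in every panel, and the glucose points part widely for HXT2 and FDH1.

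Hexose transporter genes were among those that fell in maltose wort. Of 15 measured members, 8 fell (53.3%, beside 4.97% of all genes) and none rose, and the list median was -1.42 (-1.62 relative to all genes). HXT17, a carrier known for polyol transport, had 6.13 and 6.21 in the maltose controls, against 11.21 and 10.14 in the glucose controls (log2 fold change -4.50, standard error 0.37, adjusted p = 0.00588). HXT2, a high-affinity glucose transporter, had 7.28 and 7.31 in the maltose controls, against 9.84 and 13.78 in the glucose controls (log2 fold change -4.51, standard error 1.17, adjusted p = 0.0383), with glucose control 2 far above glucose control 1. HXT4, another glucose transporter, had 7.68 and 7.35 in the maltose controls, against 9.12 and 13.19 in the glucose controls and was not called (adjusted p = 0.0731). The 2 replicates thus gave the same order for these genes but not the same size. HXT5, the transporter of slow growth and starvation, fell by 2.19 on the log2 scale, the low-affinity transporters HXT3 and HXT1 by 1.86 and 1.38, the high-affinity transporter HXT7 by 1.32, the galactose permease GAL2 by 1.42 and HXT13 by 2.70, its maltose mean being under the S. pombe level. HXT8 had 6.73 and 6.77 in the maltose controls, against 6.86 and 10.74 in the glucose controls and was high on a single array (adjusted p = 0.221). Probe sets that can bind similar transcripts read 5 of the 15 members, HXT17, HXT13 and HXT7 among them, and of the 10 members with unique probe sets 5 fell. Without glucose control 1, 10 members were called lower, beside 7.68% of all genes, and without glucose control 2, 5, beside 5.66%. HXT3, HXT1, HXT7 and GAL2 were then no longer called, at -1.27, -1.03, -0.86 and -1.21.

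Of the genes that sense glucose and control the transporters, more fell than rose. Of 22 members of the list for glucose sensing and repression, 5 fell and 1 rose, with a list median of -0.39 (-0.59 relative to all genes). MIG1, the repressor at the end of the pathway, had 8.08 and 8.19 in the maltose controls, against 9.91 and 11.23 in the glucose controls (log2 fold change -2.43, standard error 0.43, adjusted p = 0.016). Its relative MIG3 fell by 2.24, and STD1 and MTH1, whose products keep hexose transporter genes repressed when glucose is absent, fell by 2.38 and 1.53. SKS1, whose kinase is needed when glucose is scarce, had 8.34 and 8.21 in the maltose controls, against 10.93 and 12.83 in the glucose controls (log2 fold change -3.60, standard error 0.59, adjusted p = 0.0137). SNF4, the activating subunit of the Snf1 kinase, rose by 1.39. It was not called without glucose control 1 (1.25), and MTH1 was not without glucose control 2 (-1.0). The transcripts of the regulators MIG1, MIG3, STD1 and SKS1 were all higher in glucose control 2 than in glucose control 1.

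Genes of disaccharide use were mostly not called. Of 11 measured members, SUC2, which encodes invertase, fell, with 10.45 and 10.01 in the maltose controls, against 12.64 and 13.32 in the glucose controls (log2 fold change -2.75, standard error 0.31, adjusted p = 0.00832). The maltose permease gene MAL31 had 13.67 and 13.46 in the maltose controls, against 12.78 and 12.14 in the glucose controls, and its log2 fold change of 1.11 passed the adjusted p (0.0311) but not the fold threshold. MAL11, a permease for several glucosides, stood at -1.27 (adjusted p = 0.021), and the isomaltase gene IMA1 at -0.40 (adjusted p = 0.344). These 3 were picked after their values were seen. The counts were 1 higher and 3 lower without glucose control 1. Another 4 members of this list found no probe set that names them singly and were not used here.

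Genes of gluconeogenesis and of the use of ethanol and acetate fell in maltose wort, with similar medians against both glucose controls. Of 21 members of that list, 9 fell (42.9%, beside 4.97% of all genes) and none rose, with a median of -1.43 against glucose control 1 and -1.27 against glucose control 2. HAP4, the activating subunit of the factor that switches on respiratory genes, had 10.72 and 10.70 in the maltose controls, against 13.51 and 14.19 in the glucose controls (log2 fold change -3.14, standard error 0.28, adjusted p = 0.00605). CIT2, the citrate synthase of the glyoxylate cycle, had 11.61 and 11.52 in the maltose controls, against 14.07 and 14.28 in the glucose controls (log2 fold change -2.61, standard error 0.19, adjusted p = 0.00501). CAT8, an activator of gluconeogenesis genes, fell by 2.21, PCK1, which makes the gluconeogenic enzyme phosphoenolpyruvate carboxykinase, by 3.72, and the lactate permease gene JEN1 by 3.45. The acetyl-CoA genes ACS1 and ACH1 fell by 2.23 and 2.36, the aldehyde dehydrogenase gene ALD6 by 1.73 and ATO3, a transporter gene, by 1.94. FBP1, fructose-1,6-bisphosphatase, had 8.94 and 8.92 in the maltose controls, against 9.03 and 12.53 in the glucose controls, so that only glucose control 2 was high (adjusted p = 0.222). Both maltose controls lay below both glucose controls in 16 of the 21 members, beside 27.1% of all genes, and 5 members overlapped.

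Several electron transport genes fell, while no subunit of the ATP synthase was called. Of 37 genes of oxidative phosphorylation, 10 fell (27%) and none rose, and the median was -0.67 against each glucose control. Cytochrome c, CYC1, had 9.96 and 9.97 in the maltose controls, against 13.64 and 14.02 in the glucose controls (log2 fold change -3.87, standard error 0.22, adjusted p = 0.00365). The external NADH dehydrogenase NDE1 had 8.24 and 8.23 in the maltose controls, against 11.60 and 11.91 in the glucose controls (log2 fold change -3.52, standard error 0.20, adjusted p = 0.00365). Both were low on both maltose arrays by more than 3 log2 units against either glucose array. The internal NADH dehydrogenase NDI1 fell by 2.39, the cytochrome bc1 complex genes CYT1, QCR6, QCR2 and COR1 by 2.02, 1.81, 1.49 and 1.35, and the cytochrome c oxidase genes COX6, COX8 and COX5A by 2.0, 1.74 and 1.72. The 12 measured ATP synthase subunits lay between -0.94 and 0.20, and 1 of them passed the adjusted p. The list count was 11 without glucose control 1 and 9 without glucose control 2, where COR1 was no longer called (-1.13).

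Glycolysis and the tricarboxylic acid cycle held no called gene, although without glucose control 1 the glycolysis list had 3 called higher and 2 called lower. Among 20 genes of glycolysis and alcoholic fermentation the fold changes ran from -1.23 to 1.23, and those with the smallest p were PYK2, a pyruvate kinase (-1.23, adjusted p = 0.0179), and the alcohol dehydrogenase ADH5 (1.04, adjusted p = 0.0209). Of 16 genes of the tricarboxylic acid cycle, 4 lower ones and 1 higher one passed the adjusted p alone, with KGD1 of the oxoglutarate dehydrogenase at -1.23 and the mitochondrial citrate synthase CIT1 at -1.15. The list for peroxisomal beta-oxidation also held carnitine genes, and its median was -0.01. Of its 18 members, 2 fell (11.1%, beside 4.97% of all genes), both of them carnitine genes. They were the carnitine acetyltransferase gene YAT1 (-2.0) and the carnitine carrier gene CRC1 (-1.37), and CRC1 was not called without glucose control 2 (-0.92).

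Genes that build mitochondria were, unlike those of electron transport, among those that rose. The list of 72 mitochondrial ribosomal proteins had 19 genes that rose (26.4%, beside 8.48% of all genes), the 27 genes of mitochondrial protein import had 9 and the 14 mitochondrial aminoacyl-tRNA synthetases had 7. None of their members fell. The mitochondrial ribosomal protein MRP21 had 11.12 and 11.18 in the maltose controls, against 8.71 and 8.68 in the glucose controls (log2 fold change 2.45, standard error 0.22, adjusted p = 0.00605), and RSM27 had 11.03 and 11.04 in the maltose controls, against 9.02 and 8.88 in the glucose controls (log2 fold change 2.09, standard error 0.18, adjusted p = 0.00605). The import genes TIM13, TIM9 and TIM8, small chaperones of the intermembrane space, rose by 2.06, 1.94 and 1.93, and PAM16 of the import motor rose by 1.88. Of the synthetases, which charge tRNAs inside mitochondria, ISM1 for isoleucine rose by 2.01, MSY1 for tyrosine by 1.81 and MSF1 for phenylalanine by 1.70. Medians relative to all genes were 0.91, 0.85 and 1.08. The distance was larger to glucose control 1 than to glucose control 2, with medians of 1.48 and 0.70 for the ribosomal proteins, 1.23 and 0.79 for import and 1.57 and 0.97 for the synthetases. The counts were 10, 6 and 5 without glucose control 1, beside 19.0% of all genes, and 46, 12 and 11 without glucose control 2, beside 6.64%. The share of mitochondrial ribosomal proteins called higher was thus under that of all genes without glucose control 1.

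Many cytoplasmic ribosomal protein genes rose in the maltose controls and none fell. Of 128 measured, 54 rose (42.2%, beside 8.48% of all genes), 99 passed the adjusted p alone on the higher side, the list median being 1.25 (1.04 relative to all genes), with a range from -0.42 to 2.07. Both maltose controls lay above both glucose controls in 123 of them, beside 43.6% of all genes. RPS16A of the small subunit had 11.99 and 12.08 in the maltose controls, against 10.38 and 9.54 in the glucose controls (log2 fold change 2.07, standard error 0.33, adjusted p = 0.0134), and RPL21B of the large subunit had 11.80 and 11.92 in the maltose controls, against 10.32 and 10.02 in the glucose controls (log2 fold change 1.69, standard error 0.20, adjusted p = 0.00945). RPS0A, RPS11A and RPS15 rose by 1.59, 1.73 and 1.84. Many of these genes have near-identical paralogs: 25 were read by probe sets that can bind similar transcripts, of which 14 were called, and of 103 with unique probe sets 40 were. The list lay further above glucose control 2 than above glucose control 1, with medians of 1.55 and 1.0, and 89 members were called without glucose control 1 and 26 without glucose control 2. The ribosomal RNA probe sets, whose values are given above, were lower in the maltose controls.

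Few genes that assemble ribosomes were called. Of 120 ribosome biogenesis factors none rose and 1 fell, RCL1 of small subunit processing (-1.32), which was not called without glucose control 1 (-1.16). The list median was -0.08 (-0.29 relative to all genes), and 47 members overlapped between the worts, as did 29.3% of all genes. Without glucose control 1, 10 were called higher and 7 lower, beside 19.0% and 7.68% of all genes. Among 28 subunits of RNA polymerases I and III, which make ribosomal and transfer RNA, 3 rose (10.7%, beside 8.48% of all genes). They were RPC34 (1.92), RPA12 (1.46) and RPA43 (1.39), and RPA12 and RPA43 were not called without glucose control 2 (0.90 and 1.0). Of 34 translation factors 2 rose (5.88%), a share under that of all genes, and the list median was 0.21, beside 0.20 for all genes. ANB1, the hypoxic form of factor eIF5A, had 9.58 and 9.37 in the maltose controls, against 7.75 and 7.79 in the glucose controls (log2 fold change 1.70, standard error 0.19, adjusted p = 0.00832), and CAM1, linked to elongation, rose by 1.33. Of 21 cytoplasmic aminoacyl-tRNA synthetases, 3 rose (14.3%), GRS1 for glycine (1.71), TYS1 for tyrosine (1.41) and YHR020W for proline (1.33), and 10 passed the adjusted p alone. Medians against glucose control 1 and glucose control 2 were 0.08 and 0.87 for the polymerase subunits and 0.23 and 0.14 for the translation factors. For the cytoplasmic synthetases they were 0.62 and 1.09, beside 0.11 and 0.30 for all genes. CAM1, TYS1 and YHR020W were not called without glucose control 2 (1.27, 1.15 and 1.07).

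**Figure D3:**
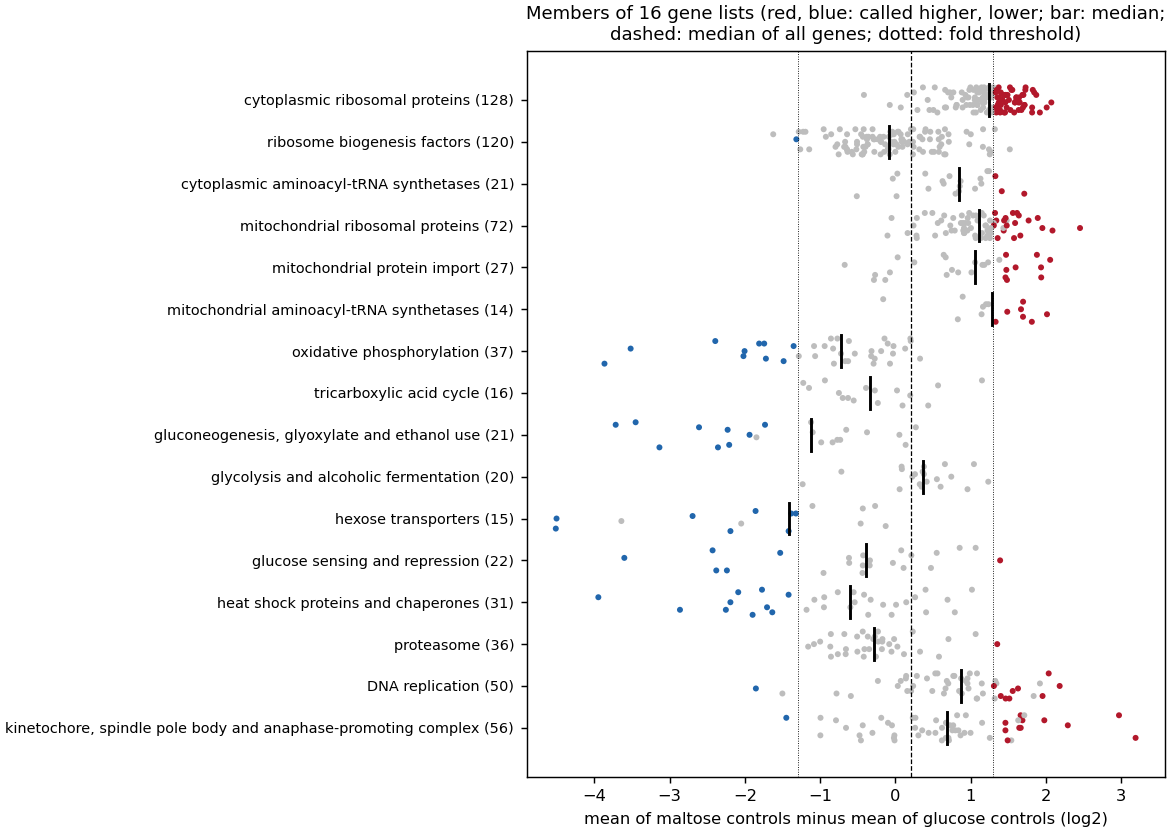
Log2 fold change (mean of the maltose controls minus mean of the glucose controls) of every measured member of 16 gene lists, with the number of members in parentheses. Red and blue points were called higher and lower, grey points were not called, bars are list medians, the dashed line is the median of all genes (0.20) and dotted lines mark the fold threshold of 1.301. Points of the mitochondrial and cytoplasmic ribosomal proteins lie mostly right of the dashed line, those of electron transport and hexose transport left of it, and ribosome biogenesis factors on both sides.

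In nitrogen metabolism, more genes fell than rose. Of 25 genes for glutamate, aspartate, serine, glycine and proline, 5 fell and none rose, PUT1 among them. The glutamine synthetase gene GLN1 had 11.19 and 11.24 in the maltose controls, against 13.59 and 13.35 in the glucose controls (log2 fold change -2.26, standard error 0.29, adjusted p = 0.0102). The glutamate dehydrogenase gene GDH1 had 8.88 and 8.80 in the maltose controls, against 11.61 and 12.42 in the glucose controls (log2 fold change -3.18, standard error 0.61, adjusted p = 0.0186). The one-carbon genes SHM2 and GCV1 fell by 1.66 and 1.43, and the list had 8 genes called lower without glucose control 1. Of 22 genes under nitrogen catabolite repression, which are kept low while good nitrogen sources last, 2 fell, the ammonium permease gene MEP1 with 7.94 and 7.92 in the maltose controls, against 11.10 and 9.92 in the glucose controls (log2 fold change -2.58, standard error 0.50, adjusted p = 0.0186), and the arginase gene CAR1 (-1.69), which was not called without glucose control 2 (-1.16). For that list the medians were -0.98 against glucose control 1 and 0.14 against glucose control 2. Relative to all genes they were -1.09 and -0.16. Without glucose control 2, 9 members were called lower, beside 5.66% of all genes. Without glucose control 1, 4 were called higher and 2 lower, beside 19.0% and 7.68% of all genes.

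Genes for the transport of amino acids and peptides were called in both directions. Of 26 permeases and their regulators, 5 fell and 2 rose (19.2% and 7.69%, beside 4.97% and 8.48% of all genes), so that the share that rose was no higher than among all genes. The list had 1 member called higher and 11 lower without glucose control 1, and 7 higher and 5 lower without glucose control 2. The peptide transporter gene PTR2 had 10.004 and 9.95 in the maltose controls, against 12.53 and 12.36 in the glucose controls (log2 fold change -2.47, standard error 0.20, adjusted p = 0.00588). AGP2, a permease also tied to polyamine uptake, had 5.87 and 5.44 in the maltose controls, against 8.82 and 10.45 in the glucose controls (log2 fold change -3.97, standard error 0.56, adjusted p = 0.0115). STP1 and STP2, the factors that activate permease genes when amino acids are outside the cell, fell by 1.62 and 1.5, and the low-affinity methionine permease gene MUP3 by 1.53. The permease genes TAT1 and GNP1 rose by 1.43 and 1.33. STP1 was not called without glucose control 2 (-1.08), nor GNP1 without glucose control 1 (0.84).

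Amino acid synthesis held few called genes outside sulfur metabolism. In the list for sulfur, methionine and threonine synthesis, 4 of 36 fell and 3 rose (11.1% and 8.33%), the share that rose being near that of all genes. The cystathionine lyase gene STR3 had 8.94 and 9.20 in the maltose controls, against 12.40 and 12.01 in the glucose controls (log2 fold change -3.14, standard error 0.22, adjusted p = 0.00501), and ADI1, of the methionine salvage pathway, had 9.65 and 9.66 in the maltose controls, against 11.83 and 11.68 in the glucose controls (log2 fold change -2.10, standard error 0.21, adjusted p = 0.00766). MET5, a subunit of sulfite reductase, had 11.16 and 11.003 in the maltose controls, against 9.34 and 9.34 in the glucose controls (log2 fold change 1.74, standard error 0.18, adjusted p = 0.00786). Among the others of this list, SAM1 and CYS3 fell by 1.99 and 1.52, and HOM2 and MRI1 rose by 1.70 and 1.57. Branched-chain synthesis had 2 of 12 genes that rose, ILV6 (1.37) and LEU9 (1.35), lysine synthesis had LYS9 (1.85) of 9, arginine synthesis ARG7 (1.40) of 8, and histidine and aromatic synthesis PHA2 (1.78) of 20, its glucose mean being under the S. pombe level. None of these lists had a gene that fell. The histidine and aromatic list had, without glucose control 1, 7 genes called higher, and the sulfur list 5 called higher and 6 lower. ILV6 and LEU9 were not called without glucose control 2 (1.24 and 1.25), nor ARG7 without glucose control 1 (1.29). Of 32 measured genes that the study names, 5 rose and 6 fell in this comparison. The study chose those genes on these same arrays, so their count is no independent evidence.

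Protein folding genes were among those that fell in maltose wort. Of 31 heat shock proteins and chaperones, 10 fell (32.3%, beside 4.97% of all genes) and none rose, with a list median of -0.60 (-0.80 relative to all genes). APJ1, a J-protein co-chaperone, had 8.79 and 8.61 in the maltose controls, against 12.42 and 12.87 in the glucose controls (log2 fold change -3.95, standard error 0.24, adjusted p = 0.00365). FES1, the nucleotide exchange factor of Hsp70, had 10.34 and 10.12 in the maltose controls, against 12.52 and 13.67 in the glucose controls (log2 fold change -2.86, standard error 0.38, adjusted p = 0.0106), and KAR2, the Hsp70 of the endoplasmic reticulum, had 11.92 and 11.85 in the maltose controls, against 13.78 and 14.17 in the glucose controls (log2 fold change -2.09, standard error 0.21, adjusted p = 0.00766). Also lower were the Hsp90 partners STI1 (-2.19) and CPR6 (-1.77), the Hsp70 relative SSE1 (-2.25), the co-chaperones YDJ1 (-1.64) and SIS1 (-1.42), the plasma membrane protein HSP30 (-1.90) and BTN2 (-1.71), which sorts misfolded proteins. Without glucose control 1, 12 members were called lower, and without glucose control 2, 8, YDJ1 (-0.96) and SIS1 (-1.22) not among them. Several other heat shock genes were not called, such as HSP26 (-0.16, adjusted p = 0.524), HSP104 (-0.42, adjusted p = 0.219) and HSP12 (1.17, adjusted p = 0.207), which were picked after their values were seen. In the proteasome, 1 of 36 genes rose, the assembly factor gene RPN14 (1.35), not called without glucose control 2 (1.24).

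Other genes of stress and storage changed singly. Of 18 genes of trehalose and glycogen, GSY1, a glycogen synthase, fell, with 9.10 and 8.99 in the maltose controls, against 11.50 and 11.90 in the glucose controls (log2 fold change -2.66, standard error 0.23, adjusted p = 0.00605). In the oxidative stress list, 3 of 27 rose and 1 fell (11.1% and 3.7%, beside 8.48% and 4.97% of all genes). SKN7, a regulator of the oxidative stress response, had 8.95 and 8.84 in the maltose controls, against 11.02 and 11.46 in the glucose controls (log2 fold change -2.35, standard error 0.22, adjusted p = 0.00741), whereas the glutaredoxin gene GRX5, of iron-sulfur cluster assembly in mitochondria, had 11.71 and 11.87 in the maltose controls, against 9.95 and 10.10 in the glucose controls (log2 fold change 1.77, standard error 0.20, adjusted p = 0.00832). The mitochondrial thioredoxin gene TRX3 and the peroxidase gene DOT5 rose by 1.44 and 1.44, but not without glucose control 2 (1.05 and 1.25). Among 26 genes of stationary phase and starvation, 3 rose and 3 fell (11.5% each, beside 8.48% and 4.97% of all genes). SPG4 (-2.0) and the regulators GIS1 (-1.63) and MSN4 (-1.65) fell. MOH1 (1.36), GRE3 (1.48) and SNO3 (1.95, with a probe set that can bind similar transcripts) rose. MSN4 and GRE3 were not called without glucose control 2 (-1.15 and 0.96). The oxidative stress list had 8 members called higher and 2 lower without glucose control 1, and 1 higher and 2 lower without glucose control 2. For the stationary phase list these counts were 8 higher and 5 lower, and 2 higher and 2 lower. Of all genes, 19.0% were called higher and 7.68% lower without glucose control 1, and 6.64% and 5.66% without glucose control 2.

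Low-oxygen genes were called in both directions. Of 13 genes for DAN/TIR mannoproteins and sterol uptake, 5 rose (38.5%, beside 8.48% of all genes) and none fell. The adjusted p alone was passed by 8 of them on the higher side and 1 on the lower side. Beside TIR4, the mannoprotein gene TIR1 had 12.78 and 12.74 in the maltose controls, against 10.57 and 10.68 in the glucose controls (log2 fold change 2.14, standard error 0.18, adjusted p = 0.00605). The sterol importer gene PDR11, the sterol uptake regulator SUT1 and TIR3 rose by 1.81, 1.63 and 1.45, the glucose mean of SUT1 being under the S. pombe level. These 3 were not called without glucose control 2 (1.05, 1.28 and 1.07), where 2 members rose and 2 others fell. With quantile normalization over the S. cerevisiae probe sets, 3 rose and 1 fell. ROX1, the repressor of hypoxic genes, had 7.58 and 7.81 in the maltose controls, against 10.71 and 11.21 in the glucose controls (log2 fold change -3.27, standard error 0.26, adjusted p = 0.00588). In the list of 13 hypoxic genes and regulators it was the only gene that fell, and SET4 and ANB1 were the only ones that rose. Those shares, 15.4% higher and 7.69% lower, stood beside 8.48% and 4.97% of all genes. The median of that list was 0.20, the same as that of all genes. MOT3, another repressor of hypoxic genes, which the study names and none of the lists holds, fell by 1.56, but not without glucose control 1 (-1.21).

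In lipid synthesis, called genes of the fatty acid list were mostly higher and those of the inositol list lower. Of 14 genes of fatty acid synthesis, 4 rose: PHS1 (2.24), IFA38 (2.10) and TSC13 (1.51) of the elongation cycle and ACB1 (1.80), which binds acyl-CoA. The acyl-CoA synthetase gene FAA1 fell, with 10.43 and 10.49 in the maltose controls, against 13.05 and 13.38 in the glucose controls (log2 fold change -2.75, standard error 0.20, adjusted p = 0.00501). Of 21 genes for inositol and phospholipids, 3 fell and none rose (14.3% lower, beside 4.97% of all genes). Of the 21, 4 were called higher and 4 lower without glucose control 1, beside 19.0% and 7.68% of all genes. With the control arrays alone none was called. INO1, which makes inositol phosphate, had 8.98 and 8.95 in the maltose controls, against 11.92 and 10.65 in the glucose controls (log2 fold change -2.33, standard error 0.42, adjusted p = 0.0163), its activator INO2 fell by 1.83 and its repressor OPI1 by 1.68. In the ergosterol and mevalonate pathway, ERG6 (1.95) and ERG2 (1.47) rose and IDI1 (-1.71) fell, of 26. Those shares, 7.69% higher and 3.85% lower, stood beside 8.48% and 4.97% of all genes. TSC13 (1.22) and ERG6 (1.26) were not called without glucose control 2. Without glucose control 1, 5 members of the ergosterol list were called higher and 2 lower, beside 19.0% and 7.68% of all genes. Without glucose control 2, 1 was called higher and 1 lower, beside 6.64% and 5.66%. In glycerol metabolism, GPD2 (-1.71) and GUT2 (-1.34) fell and DAK1 (1.34) rose, of 11, and GUT2 (-1.18) and DAK1 (1.02) were not called without glucose control 2.

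Of the genes of chromosome segregation and DNA replication, more rose than fell in maltose wort. Of 56 genes of the kinetochore, the spindle pole body and the anaphase-promoting complex, 11 rose (19.6%, beside 8.48% of all genes) and 1 fell, and both maltose controls lay above both glucose controls in 38, beside 43.6%. SPC98, of the microtubule-organizing complex, had 7.35 and 7.36 in the maltose controls, against 5.17 and 3.16 in the glucose controls (log2 fold change 3.19, standard error 0.70, adjusted p = 0.0259). MTW1, of the kinetochore, had 7.06 and 6.94 in the maltose controls, against 4.82 and 3.24 in the glucose controls (log2 fold change 2.97, standard error 0.55, adjusted p = 0.0172), and CTF18, of sister chromatid cohesion, had 7.62 and 7.59 in the maltose controls, against 4.88 and 4.0 in the glucose controls (log2 fold change 3.16, standard error 0.49, adjusted p = 0.0127). In all 3 the glucose mean was under the S. pombe level and the gap to glucose control 2 was the larger one. BUB1 of the spindle checkpoint rose by 1.98 and APC5 of the anaphase-promoting complex by 2.29, and ASK1 of the kinetochore fell by 1.45. Of 50 replication genes, 9 rose (18%) and 1 fell. The origin recognition gene ORC5 had 8.29 and 8.21 in the maltose controls, against 6.35 and 6.24 in the glucose controls (log2 fold change 1.95, standard error 0.19, adjusted p = 0.00741), the polymerase genes DPB3, POL1 and POL3 rose by 2.18, 1.63 and 1.56, and the helicase subunit gene MCM3 fell by 1.85. The counts of genes that rose were 16 and 22 without glucose control 1, beside 19.0% of all genes, and 6 and 4 without glucose control 2, beside 6.64%, so that the replication genes were then near the share of all genes. APC5 (1.27) and POL3 (1.26) were not called without glucose control 2. With quantile normalization over the S. cerevisiae probe sets, 5 genes of each list rose, and the medians were 0.29 for segregation and 0.56 for replication.

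Cyclin, mating and meiosis genes held further increases. The list of 25 cyclins and cell cycle regulators had 4 genes that rose, FKH1 (2.10), FAR1 (1.73), CLB5 (1.68) and CLN2 (1.58), and CLB5 was not called without glucose control 1 (1.08). The list median was 0.15 against glucose control 1 and 1.36 against glucose control 2, beside 0.11 and 0.30 for all genes. In the pheromone response, 4 of 30 rose, STE3 (2.17), AGA2 (1.84), FAR1 and SST2 (1.68), and PRM2 fell by 2.24. SST2 was not called without glucose control 2 (1.23). The median of the pheromone list was 0.23 against glucose control 1 and 0.75 against glucose control 2. Of 48 genes of meiosis and sporulation, 5 rose, HOP2 (2.10), SAE3 (1.75), SPO20 (1.54), REC104 (1.44) and IME2 (1.33). The median of the meiosis list was 0.12 against glucose control 1 and 0.57 against glucose control 2. SAE3 (1.28), SPO20 (1.02), REC104 (1.20) and IME2 (0.82) were not called without glucose control 2. With quantile normalization over the S. cerevisiae probe sets, 2 pheromone genes and 1 meiosis gene rose. The mean signals of FAR1, STE3, SST2, HOP2 and SPO20 in the glucose controls and of PRM2 in the maltose controls were under the S. pombe level, and that of SAE3 was under it in both worts. The shares that rose, 16% of the cyclin list, 13.3% of the pheromone list and 10.4% of the meiosis list, stood beside 8.48% of all genes, and that of the meiosis list was near it. Histone genes did not pass, with HHT2 at -0.59 (adjusted p = 0.0686) the one with the smallest p of 9.

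At the cell surface, 5 of 38 genes for cell wall glucan, chitin and mannoproteins rose (13.2%, beside 8.48% of all genes). Those were high against glucose control 2 more than against glucose control 1. The list median was 0.31 (0.11 relative to all genes). GAS3 and GAS1, of a family of glucan-remodelling enzymes, rose by 1.86 and 1.61, the mannoprotein gene CWP2 by 1.62, PST1 by 1.59 and the glucanase gene DSE4 by 1.43. Without glucose control 2 none of the 5 was called, at 1.17, 1.08, 0.93, 1.02 and 1.17. The list median was -0.07 against glucose control 1 and 0.78 against glucose control 2, beside 0.11 and 0.30 for all genes. With quantile normalization over the S. cerevisiae probe sets, 4 members were called higher and 2 lower. Of 13 flocculins and regulators, FLO11, an adhesin for biofilms, had 10.79 and 10.69 in the maltose controls, against 12.15 and 13.92 in the glucose controls (log2 fold change -2.29, standard error 0.56, adjusted p = 0.0325), and its repressor SFL1 fell by 1.94. The share of the flocculin list that fell was 15.4%, beside 4.97% of all genes. Its median was -0.88 against glucose control 1 and 0.13 against glucose control 2. In ester and higher alcohol formation none of 15 genes was called, the smallest p being those of SFA1 (-1.19) and IAH1 (0.82). The median of that list was 0.18 against glucose control 1 and 0.14 against glucose control 2.

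Genes of metal, phosphate and vitamin supply changed singly too. Besides HMX1, 2 of 26 genes of the iron list rose (7.69%, beside 8.48% of all genes). They were the copper chaperone gene ATX1 (2.14) and the metal transporter gene SMF3 (1.97). COT1, a vacuolar cobalt and zinc transporter, rose by 1.65, GIT1, a glycerophosphoinositol permease of the phosphate response, fell by 2.44, and THI73, a transporter gene of the thiamine list, fell by 2.40. These were the only genes called among 9, 23 and 15 members. In purine and pyrimidine synthesis, ADE3 (-1.95) and ADE1 (-1.35) fell and URA10 (1.47) rose, of 29, ADE1 not without glucose control 1 (-0.92) and URA10 not without glucose control 2 (1.27). Of 45 genes of vacuolar proteases and autophagy, CPS1, a carboxypeptidase, fell by 2.04 and ATG10 rose by 1.41, but was not called without glucose control 2 (1.25). The iron list had 3 members called higher and 4 lower without glucose control 1, and 3 higher and 1 lower without glucose control 2. For the purine and pyrimidine list these counts were 2 higher and 1 lower, and 0 higher and 5 lower. For the autophagy list they were 8 higher and 2 lower, and 0 higher and 2 lower. Of all genes, 19.0% were called higher and 7.68% lower without glucose control 1, and 6.64% and 5.66% without glucose control 2.

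**Figure D4:**
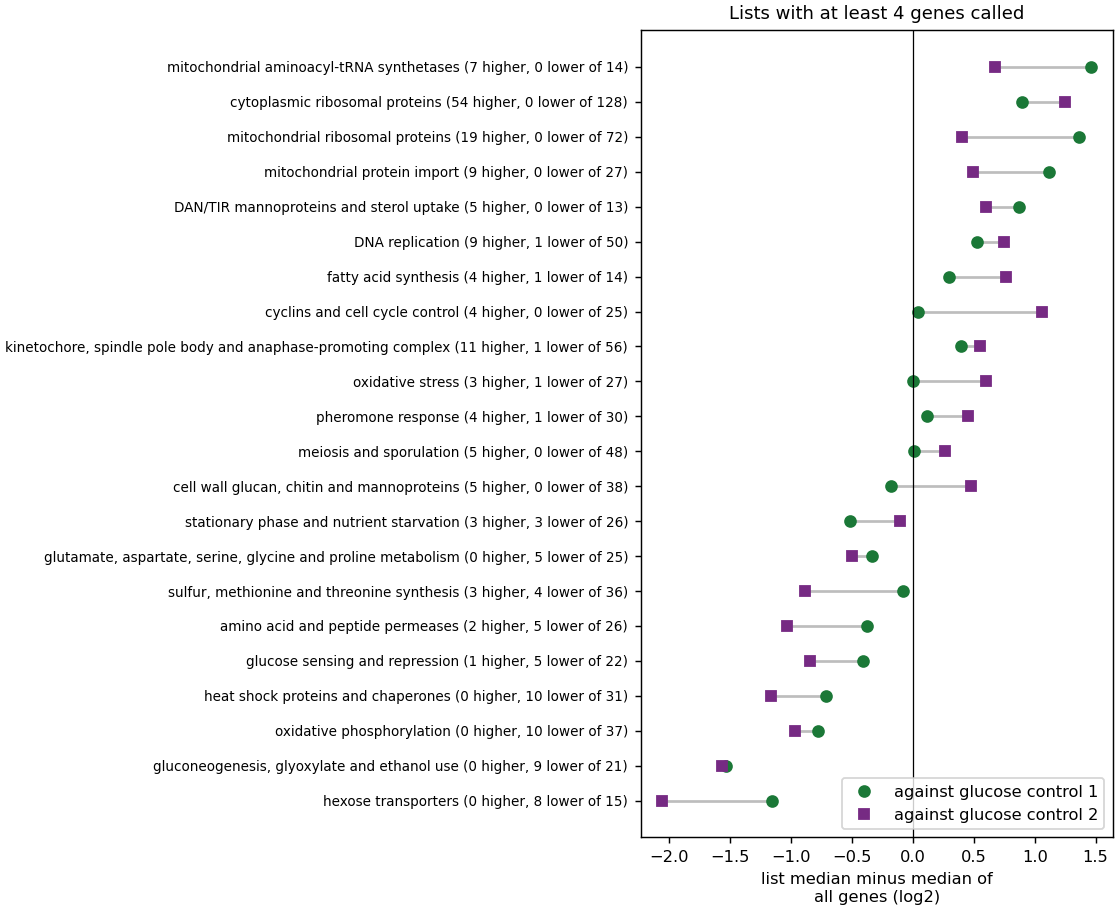
Median log2 difference of the maltose controls from glucose control 1 (circles) and from glucose control 2 (squares) for the 22 gene lists with at least 4 genes called, each relative to the median of all genes against the same array. Counts in the labels are the members called higher and lower. Gluconeogenesis and oxidative phosphorylation lie at nearly the same place against both glucose controls, while mitochondrial ribosomal proteins, cyclins and cell wall genes part.

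The glucose controls differed from each other by more than 1.301 in 690 genes (12.2%), in 534 of them with glucose control 1 higher, whereas the maltose controls did so in 1 gene. These differences are described without a test. Genes of poor nitrogen sources were among those higher in glucose control 1. DAL80, a repressor of nitrogen catabolism genes, had log2 signals of 6.30 and 6.26 in the maltose controls, against 10.76 and 4.90 in the glucose controls. The allantoin gene DAL3 had 6.48 and 6.41 in the maltose controls, against 8.63 and 4.32 in the glucose controls, and the high-affinity ammonium permease gene MEP2 had 8.53 and 8.59 in the maltose controls, against 12.12 and 8.81 in the glucose controls. In DAL80 and DAL3 the maltose controls thus lay between the glucose controls. Amino acid permease genes were among those lower in glucose control 1. TAT2, for tryptophan and tyrosine, had 9.47 and 9.45 in the maltose controls, against 6.12 and 10.97 in the glucose controls, AGP1, of broad range, had 10.12 and 10.22 in the maltose controls, against 8.53 and 12.47 in the glucose controls, and DIP5, for dicarboxylic amino acids, had 11.29 and 11.26 in the maltose controls, against 9.89 and 13.41 in the glucose controls. The threonine aldolase gene GLY1 and the iron oxidase gene FET3 followed that order, with 11.31 and 11.25 in the maltose controls, against 10.14 and 13.73 in the glucose controls for GLY1 and 7.83 and 7.71 in the maltose controls, against 5.84 and 9.38 in the glucose controls for FET3. Genes high in glucose control 1 also included the stress regulator CIN5, with 6.99 and 6.99 in the maltose controls, against 9.41 and 5.20 in the glucose controls, and the polyamine exporter TPO4, with 10.52 and 10.42 in the maltose controls, against 11.13 and 7.17 in the glucose controls.

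By list, the median of glucose control 1 minus glucose control 2 was 1.11 for nitrogen catabolite repression, 1.06 for the cell wall, 0.79 for cyclins and cell cycle control, 0.63 for trehalose and glycogen and 0.55 for cytoplasmic ribosomal proteins, beside 0.14 for all genes. It was -0.79 for mitochondrial ribosomal proteins, -0.42 for hexose transporters and -0.31 for chaperones. For oxidative phosphorylation it was -0.06. The median SD of a gene between the glucose controls was 0.16 in oxidative phosphorylation and 0.79 in nitrogen catabolite repression, beside 0.37 for all genes (n = 2).

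With Flavourzyme, the maltose minus glucose difference came from 3 further arrays and shared no array with the controls. Over the 5635 genes the 2 differences correlated at r = 0.51, given as a description since genes are not independent replicates. In HXT17 the difference was -4.50 without and -5.60 with Flavourzyme, in SET4 3.06 and 3.18, in TIR4 2.79 and 2.84, in CYC1 -3.87 and -1.78, and in HMX1 -4.84 and -0.53. The list medians without and with Flavourzyme were -1.42 and -2.30 for hexose transporters, -1.12 and -0.61 for gluconeogenesis and 0.88 and 0.67 for DNA replication. They were 1.25 and -0.07 for cytoplasmic ribosomal proteins, 1.11 and 0.09 for mitochondrial ribosomal proteins and 1.06 and 0.03 for mitochondrial import. For all genes they were 0.20 and 0.24.

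The difference between the wort effects was tested for each gene with limma's interaction term, without the fold threshold, and 2 genes passed (0.0355%). Maltose wort with Flavourzyme was 1 array, which the test takes to have the spread of the other groups. PUT1 stood at 12.79 in maltose wort with Flavourzyme, against 13.47 and 13.28 in glucose wort with it, so that its low signal was found on the maltose control arrays alone (interaction -5.30, standard error 0.33, adjusted p = 0.0305). The flocculin gene FLO9 had 5.58 and 5.35 in the maltose controls, against 4.85 and 5.33 in the glucose controls and was not called without Flavourzyme, while it had 10.58 in maltose wort with Flavourzyme, against 5.14 and 4.95 in glucose wort with it (interaction -5.17, standard error 0.38, adjusted p = 0.0374). Its probe set can bind similar transcripts. FDH1 had opposite signs, 3.04 without and -4.08 with Flavourzyme, but did not pass (adjusted p = 0.0917). The number that passed rested on single arrays, at 1765 without glucose control 1, 2200 without glucose control 2 and 0 without either maltose control or either glucose array with Flavourzyme, and at 167 with quantile normalization over the S. cerevisiae probe sets.

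**Figure D5:**
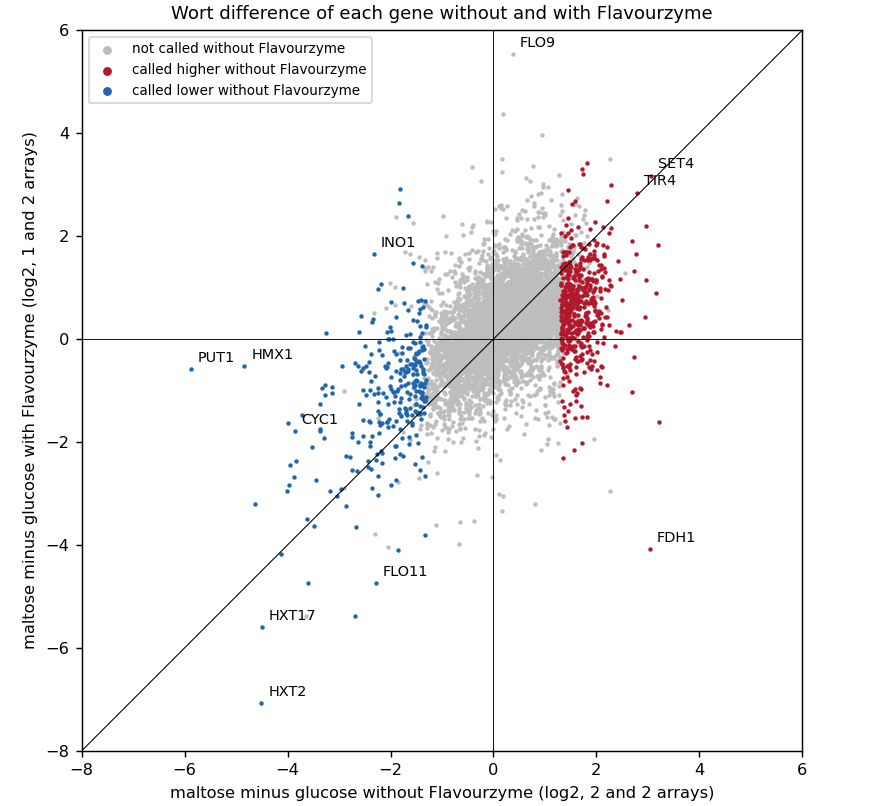
Maltose minus glucose difference of each gene without Flavourzyme (horizontal axis, 2 and 2 arrays) and with it (vertical axis, 1 and 2 arrays), on the log2 scale. Red and blue points were called higher and lower without Flavourzyme and grey points were not, and the diagonal marks equal differences. PUT1 and FLO9, the genes that passed the interaction test, lie near the horizontal and the vertical axis line.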

How the data were processed

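RNA from the 4 control samples and the 3 samples with Flavourzyme had been hybridized to Affymetrix Yeast Genome 2.0 arrays. The authors made the deposited log2 values from the scanned arrays with the rma function of the R package affy, which corrects background, normalizes quantiles over all probe sets and summarizes probes by median polish. Log2 signals were used as deposited, with no filter on low values, and the number of arrays limits their precision. A 4-group model was fitted over the 7 arrays with limma 3.58.1 in R 4.3.3 (3 residual degrees of freedom, prior degrees of freedom 2.78), and p-values were adjusted by the Benjamini-Hochberg method over 5635 genes. The genes compared and the 50 gene lists were chosen with earlier results of these data known. Genes were named by a rule: the 10 largest changes called in each direction, from each list up to 4 called members by smallest p (2 members where none was called), those the study names, and the 10 genes furthest apart in each direction between the glucose controls. Further list members were named after their values were seen. The code was tested on simulated data. Promoters and proteins were not analysed here. Alternatives were other sample sets, scalings, filters, a replicate block and the methods' ANOVA.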

Additional observations from a re-analysis of the deposited data

Results flagged for a closer look

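By limma's interaction test, 2 genes passed for a difference between the wort effect without Flavourzyme and that with it. The interaction was -5.30 on the log2 scale for PUT1 (adjusted p = 0.0305), which was -5.89 without and -0.59 with Flavourzyme, and -5.17 for FLO9 (adjusted p = 0.0374), which was 0.37 without and 5.54 with it. The maltose wort with Flavourzyme was a single array, so that the test has no measured spread for it and uses that of the other groups. The count was 0 without either maltose control, without either glucose array with Flavourzyme and with a replicate block. Groups of 2 and 1 samples were too small for a check of single outlying samples.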

How the results depend on the processing

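With single arrays left out, between 1 and 1505 genes were called, 0 to 1072 higher and 1 to 433 lower in the maltose controls, and 0 to 2200 passed the interaction test. The lowest counts belonged to the fits without either maltose control, which give the remaining array the spread of the other groups, and 179 of 197 genes named here changed from called to not called. Fits without 1 maltose control and fits without 1 glucose control both had 2 residual degrees of freedom. The SD that limma estimated as typical was 0.33 without a maltose control and 0.13 without a glucose control, against 0.25 with all arrays. The median difference of a gene between duplicates was 0.08 for the maltose controls and 0.52 for the glucose controls. The cause of the low counts was not tested. The control arrays alone gave 390 (222 higher and 168 lower), and the methods' ANOVA model, without limma's moderation and with Benjamini-Hochberg adjustment, gave 252 (137 and 115), with 1 interaction. The adjusted p alone gave 1609 (1056 and 553). Quantile normalization over the S. cerevisiae probe sets gave 167 interactions. Replicate numbers did not pair the samples (correlations of 0.01, 0.18 and 0.10 between same-numbered deviations), and a replicate block gave 808 genes over all arrays (752 among the 758), with 0 interactions, and 933 over the control arrays. Of the 197 genes, 22 were no longer called after renormalization and 17 after centring. The difference reversed in FLO9 after renormalization, at -0.13. Leaving out genes at or under the S. pombe level and averaging probe sets changed no call of these genes that remained. The promoter motif counts were not run.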
